A study of Homo sapiens with 2 samples.

Results

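The zinc finger genes of human chromosome 19 whose symbols start with ZNF were described by the HNRNPK peaks listed in them. The members were the protein-coding genes of the RefSeq annotation of GRCh38 that lie on chromosome 19 and carry such a symbol. There were 250 of them among the 1451 protein-coding genes of the chromosome and the 20037 of the genome. They include 3 readthrough symbols that join neighbouring genes and cover their sequence again. The other 1201 protein-coding genes of chromosome 19 served as the comparison.

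The study measured HNRNPK binding by ChIP-seq in H1299, a human line of non-small cell lung cancer. The groups were 1 library precipitated with an HNRNPK antibody and 1 input library made without antibody, both from untreated H1299 cells with no genotype change named. Each group had 1 library, so no value has a replicate error, and no test was run because genes and peaks are not replicates of a condition. In the peak names the line is spelled with a different initial letter from the labels, and the list was read as belonging to the 1 IP. It held 22351 peaks, of which 2195 were on chromosome 19.

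Most ZNF genes encode proteins with a row of C2H2 zinc fingers, each of which can contact a few bases of DNA, and many of them also carry a KRAB domain. KRAB binds TRIM28, which brings in the histone methyltransferase SETDB1 and HP1 proteins, and through them many of these proteins silence transposable elements. The genes arose by repeated duplication and stand in clusters on chromosome 19, so neighbours can be very similar in sequence. HNRNPK is a nucleic acid-binding protein with KH domains that prefers runs of C in single strands and acts in transcription and RNA processing.

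A gene was counted as having a peak when a listed peak overlapped its span or the 1 kb on either side by at least 1 base. A gene without one is called not listed, which is not the same as not bound. How reads that match several near-identical ZNF copies were treated is not given in the sources used here, so the counts in these genes are uncertain. Ranges in brackets after a share or a rate are 95% Wilson or exact Poisson intervals, which cover counting error only. An overlap of intervals does not show that the shares or rates are equal.

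The promoters with a peak are shown first, since they are where the list bears on the starts of ZNF genes. Of the 219 ZNF genes with a promoter window in the RefSeq GRCh38.p14 table, which runs from 250 bases before to 50 bases after the start, 4 had a peak on the window, 1.83% (0.713 to 4.6). Among the other genes of chromosome 19 the count was 46 of 966 windows, 4.76% (3.59 to 6.29), and among all protein-coding genes 293 of 15843, 1.85%. The ZNF share was lower than that of the other genes of the chromosome, though their intervals overlapped. The 250 bases before the start are given 5′ to 3′ on the strand of the gene, and capitals mark the bases under the peak. They lie at chr19:12052962-12053211 (minus strand) for ZNF878, chr19:37506689-37506938 (plus strand) for ZNF793, chr19:43532938-43533187 (plus strand) for ZNF575 and chr19:57363301-57363550 (plus strand) for ZNF547.
ZNF878: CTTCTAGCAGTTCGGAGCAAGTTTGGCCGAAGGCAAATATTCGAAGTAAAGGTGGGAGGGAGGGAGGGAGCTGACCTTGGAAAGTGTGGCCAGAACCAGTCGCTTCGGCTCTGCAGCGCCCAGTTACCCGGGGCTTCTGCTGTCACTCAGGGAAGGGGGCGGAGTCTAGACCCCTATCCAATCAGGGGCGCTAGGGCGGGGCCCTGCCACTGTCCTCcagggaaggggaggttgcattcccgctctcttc
ZNF793: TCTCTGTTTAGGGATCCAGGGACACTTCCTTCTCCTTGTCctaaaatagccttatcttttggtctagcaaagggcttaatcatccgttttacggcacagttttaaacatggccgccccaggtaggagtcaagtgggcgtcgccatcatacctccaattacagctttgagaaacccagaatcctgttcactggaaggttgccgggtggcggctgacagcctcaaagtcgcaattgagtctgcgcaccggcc
ZNF575: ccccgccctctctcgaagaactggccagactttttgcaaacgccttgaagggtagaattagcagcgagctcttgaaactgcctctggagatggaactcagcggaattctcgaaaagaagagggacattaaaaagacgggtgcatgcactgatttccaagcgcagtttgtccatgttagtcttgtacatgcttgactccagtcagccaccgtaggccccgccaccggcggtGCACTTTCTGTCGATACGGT
ZNF547: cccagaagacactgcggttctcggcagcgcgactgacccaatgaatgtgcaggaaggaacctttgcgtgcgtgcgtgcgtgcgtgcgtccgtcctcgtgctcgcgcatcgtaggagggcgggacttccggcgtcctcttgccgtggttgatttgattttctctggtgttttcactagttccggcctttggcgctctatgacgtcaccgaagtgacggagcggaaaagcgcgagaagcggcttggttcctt

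The 4 peaks differed in how much of this sequence they covered. The ZNF878 peak covered 217 of the 250 bases, that of ZNF793 covered 40 and that of ZNF575 covered 20. The ZNF547 peak began 41 bases past the start and covered none of them. In ZNF793 and ZNF575 the start used in the promoter table lies inside the annotated span. The ZNF793 peak midpoint was upstream of that start but inside the span. The ZNF575 peak was not within 1 kb of either end of the annotated span.

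The 4 promoter peaks differed in height. Fold enrichment was read as the IP coverage divided by that of a local background, after 1 is added to each. It was 3.17 in ZNF878, 2.73 in ZNF793, 3.25 in ZNF575 and 3.82 in ZNF547. The heights corresponded to 7, 13, 14 and 7 IP fragments, on local backgrounds of 1.47, 4.00, 3.50 and 1.04 scaled fragments. The FDR, the q-value given by the peak caller, was 0.640, 0.351, 0.101 and 0.290. No promoter peak of a ZNF gene therefore had an FDR under 0.05.

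A smaller share of the ZNF genes than of the other genes of chromosome 19 had a peak. A peak was listed in 57 of the 250 ZNF genes, 22.8% (18 to 28.4), against 624 of the 1201 other genes of chromosome 19, 52.0% (49.1 to 54.8), and 6455 of all 20037 protein-coding genes, 32.2% (31.6 to 32.9). The other 193 ZNF genes were not listed. The intervals of ZNF genes and other genes of the chromosome did not overlap. ZNF genes on other chromosomes were closer to those on chromosome 19, with a peak in 71 of 268, 26.5% (21.6 to 32.1).

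With the FDR under 0.05 the shares were lower in both groups. Such a peak was listed in 11 of the 250 ZNF genes, 4.4% (2.47 to 7.71), against 207 of the 1201 others, 17.2% (15.2 to 19.5). Over all protein-coding genes it was 7.35% (7.0 to 7.72), which the ZNF interval overlapped. The 11 genes were ZNF846, ZNF44, ZNF714, ZNF536, ZNF507, ZNF565, ZNF146, ZNF566, ZNF529, ZNF585A and ZNF628. ZNF565 had 2 such peaks, and 1 of them is also that of ZNF146, since the annotated spans overlap. ZNF507, ZNF146, ZNF566 and ZNF585A were named after their values were seen, to complete this list.

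Per length the difference ran the same way. The ZNF genes with their 1 kb covered 7.55 Mb and held 117 distinct peaks, 15.5 per Mb (12.8 to 18.6). The other genes covered 26.2 Mb outside the ZNF genes and held 1420 peaks, 54.1 per Mb (51.3 to 57.0). Chromosome 19 differed here from the rest of the genome, where ZNF genes had 7.63 peaks per Mb (6.27 to 9.18) and other genes had 8.33 (8.17 to 8.49). The chromosome 19 ZNF genes thus had more peaks per Mb than either group on other chromosomes, and fewer than the other genes of their own chromosome. The 62 ZNF genes from ZNF536 to ZNF296 had 31.0 per Mb (24.3 to 39.0), and the other 188 had 8.61 (6.28 to 11.5). Without ZNF536 the rate in this stretch was 20.7 (14.7 to 28.5). The limits of the stretch were set after the values were seen, so a higher rate inside it follows in part from that choice.

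The ZNF genes were the longer group, with a median span of 23.3 kb against 12.7 kb in the other genes, so shares were also compared within bins of span. Among genes of 10 to 20 kb a peak was listed in 8 of 71 ZNF genes (11.3%) and in 176 of 335 others (52.5%). Among genes of 20 to 40 kb it was listed in 18 of 108 (16.7%) and in 156 of 236 (66.1%). In these bins, which hold most ZNF genes, the intervals lay far apart, and the shares over all protein-coding genes, 28.1% and 30.7%, were between them.

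In 2 of the other 3 bins the intervals overlapped. Under 10 kb a peak was listed in 7 of 28 ZNF genes (25%) and in 164 of 471 others (34.8%). From 40 to 80 kb it was listed in 20 of 35 (57.1%) and in 86 of 115 (74.8%). Over 80 kb the intervals did not overlap, with 4 of 8, 50.0% (21.5 to 78.5), and 42 of 44, 95.5% (84.9 to 98.7). Against all protein-coding genes the order was not the same in each bin: their shares were 16.8% under 10 kb, 37.6% (35.9 to 39.3) from 40 to 80 kb and 53.5% over 80 kb, and the ZNF share was the higher one in the first and, with 57.1% (40.9 to 72.0), the second of these. Against the other genes of chromosome 19 the ZNF share was the lower one in each of the 5 bins, as the plot of shares by gene span shows.

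**Figure D1:**
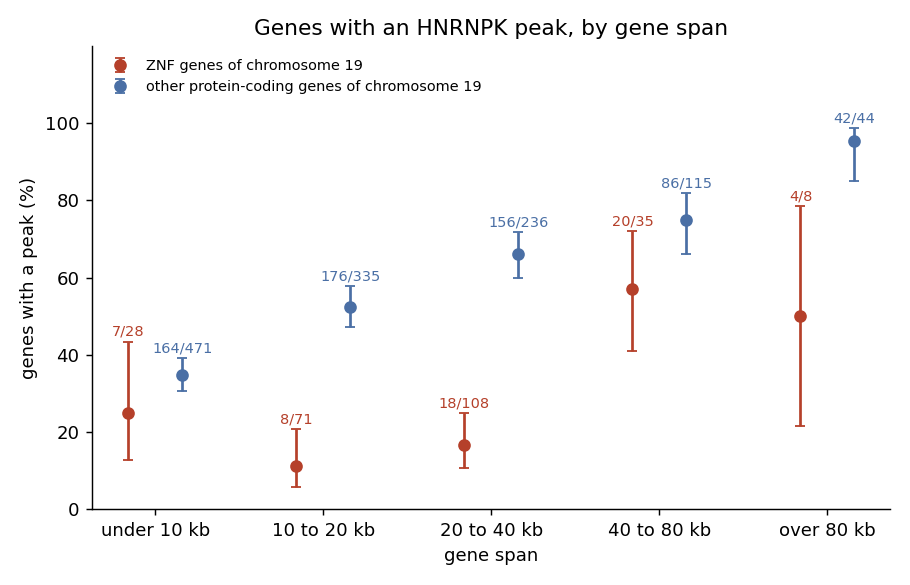
Share of genes with an HNRNPK peak in percent, by gene span, for chromosome 19 ZNF genes (red) and the other protein-coding genes of the chromosome (blue); points are shares, bars are 95% Wilson intervals and numbers are genes with a peak over all genes. ZNF genes of 20 to 40 kb had a peak in 16.7% of cases and other genes of that span in 66.1%.

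Most ZNF genes with a peak had a single one. There were 36 genes with 1 peak, 14 with 2, 5 with 3 and 2 with more, and the median over all 250 was 0 against 1 in the other genes. ZNF536 had 34 and ZNF420 had 5. The 5 genes with 3 peaks were ZNF565, ZNF793, ZNF574, ZNF83 and ZNF90. Of the 117 distinct peaks, 1 lay in more than 1 ZNF gene and 6 also lay in the window of a gene outside the family.

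ZNF536 held the most peaks of the family. It is a large gene expressed mainly in brain, whose protein is known as a repressor of neuronal differentiation genes, and it has no close ZNF neighbour. The gene (gene ID 9745) lies at chr19:30225592-30713586 on the plus strand and spans 488 kb. Its 34 peaks made up 29.1% of all ZNF peaks on 6.49% of the merged ZNF span, a rate of 69.4 per Mb (48.1 to 97.0). Without it the other ZNF genes had 83 distinct peaks, 11.8 per Mb.

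The peaks of ZNF536 were spread along the gene. The gaps between neighbouring peaks ranged from 0.131 to 43.4 kb with a median of 11.6 kb, and 14, 9 and 11 peaks lay in 3 equal parts of the gene from its start. Fold enrichment ranged from 2.44 to 4.14 and the height from 9 to 16 fragments, and 7 peaks had an FDR under 0.05. The highest was at chr19:30628058-30628290, with a fold enrichment of 4.14, 16 fragments and an FDR of 0.00361. None lay within 1 kb of either gene end.

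The sequence around ZNF536 was as dense in peaks as the gene itself. The 500 kb before it, which holds CCNE1 and URI1, had 34 peaks (68.1 per Mb), and the 500 kb after it, which reaches TSHZ3, also had 34 (68.1 per Mb). The median local background was 2.56 scaled fragments in the peaks of the gene, 3.0 before it and 2.42 after it. The density in ZNF536 was thus that of its surroundings, and the values around it were looked up after its count was seen.

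**Figure D2:**
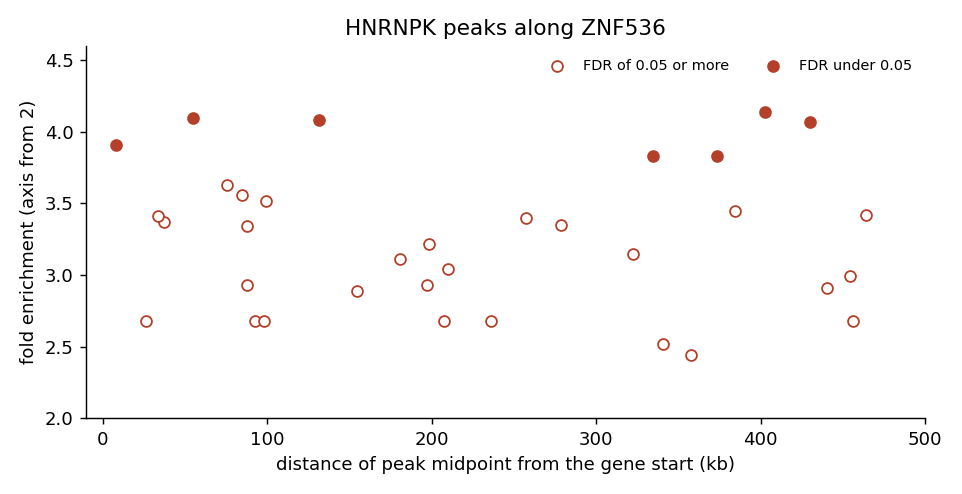
HNRNPK peaks along ZNF536: distance of each peak midpoint from the gene start in kb against fold enrichment, on an axis that starts at 2; filled points have an FDR under 0.05. The 34 peaks ran along the gene with fold enrichments of 2.44 to 4.14, and 7 of them had an FDR under 0.05.

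The other genes with many peaks included several with long annotated spans. ZNF420, also called Apak, is a KRAB protein known to restrain p53 activity. Its 5 peaks had fold enrichments of 2.93 to 3.44, none with an FDR under 0.05, and 4 of them lay upstream of the start in the promoter table but inside the annotated span. ZNF565 had 3 peaks with fold enrichments of 3.34 to 3.66, 2 of them with an FDR under 0.05. ZNF574 held 3 peaks of fold 3.10 to 3.33 in a gene of only 13076 bp. ZNF793, ZNF83 and ZNF90 had 3 peaks each with fold enrichments of at most 3.47, 3.82 and 3.81, and none of these 9 peaks had an FDR under 0.05. ZNF524 had 2 peaks, with fold enrichments of 3.61 and 3.82 and midpoints just outside its span of 3565 bp.

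The peaks with the highest fold enrichment lay in other genes. The first was that of ZNF628, at chr19:55484816-55485086, with a fold enrichment of 5.72, 11 fragments and an FDR of 0.000671, just past the far end of the gene. ZNF714 followed with a fold enrichment of 5.01, 10 fragments and an FDR of 0.00781. No other ZNF peak reached a fold enrichment of 5, and each was the single peak of its gene.

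The next peaks stood on 8 to 14 fragments. The peak of ZNF44 had a fold enrichment of 4.56 on 9 fragments (FDR 0.0367) and that of ZNF846 had 4.46 on 9 fragments (FDR 0.0442). In ZNF529 a peak at chr19:36573802-36574327 reached 4.33 on 14 fragments, with an FDR of 0.00540. ZNF208 and ZNF71 each had a peak of fold enrichment 4.30 on 8 fragments, with an FDR of 0.101. A fold enrichment above 4 could therefore rest on 8 fragments, with an FDR over 0.05, where the local background was near 1.

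The ZNF peaks were compared with other peaks of the chromosome. Their median fold enrichment was 3.34 (range 2.34 to 5.72), equal to that of the other genes, and it was 3.58 over the whole list. The median height was 10 fragments in ZNF genes and 11 in other genes, and the median length was 290 and 310 bp. An FDR under 0.05 was given to 17 of the 117 ZNF peaks, 14.5% (9.27 to 22.0), to 290 of the 1420 others, 20.4% (18.4 to 22.6), and to 15.5% of the whole list. The intervals of ZNF and other peaks overlapped. Without ZNF536 the ZNF peaks had a median height of 8 fragments, and 12% (6.68 to 20.8) had an FDR under 0.05.

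The local background varied among the ZNF peaks. Its median was 2.38 scaled fragments in ZNF peaks, 2.75 in peaks of other genes and 1.28 in the whole list. Without ZNF536 the ZNF peaks had a median of 2.0. Peaks on a higher background also had more fragments. The height, the fold enrichment and the background are tied by the same ratio, and the fold enrichment had a narrow range. The rise is therefore no finding.

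**Figure D3:**
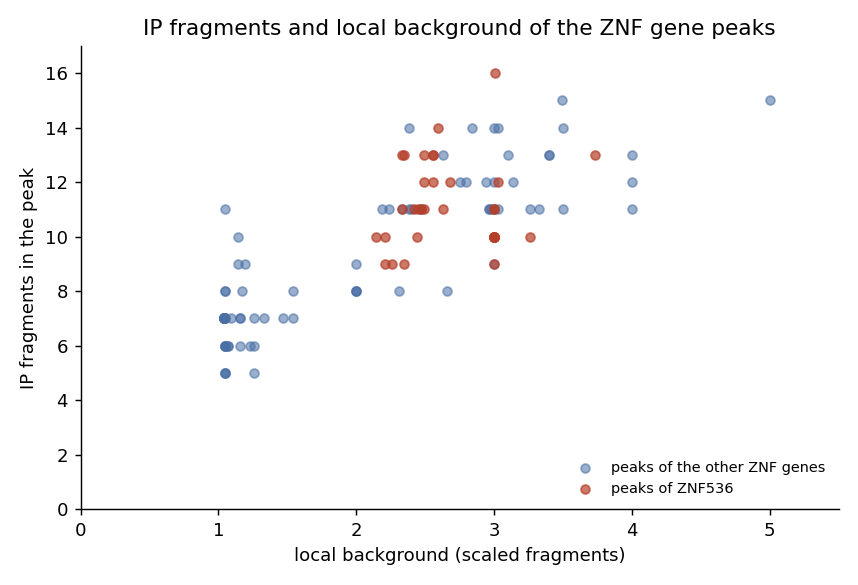
Local background in scaled fragments against the number of IP fragments for each of the 117 peaks of chromosome 19 ZNF genes; red points are the 34 peaks of ZNF536 and blue points those of the other ZNF genes. The background ranged from 1.04 to 5.0 and the height from 5 to 16 fragments. Their joint rise is no finding, since they are tied by the fold enrichment, which had a narrow range.

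The starts of fewer ZNF genes than of other genes of the chromosome were near a peak. A peak lay within 1 kb of the start in 9 of 219 ZNF genes, 4.11% (2.18 to 7.62), against 156 of 966 other genes, 16.1% (14 to 18.6). Counting both ends of all genes, the numbers were 14 of 250, 5.60% (3.36 to 9.18), against 316 of 1201, 26.3% (23.9 to 28.9). The intervals did not overlap in either comparison. No share over all protein-coding genes was counted at these distances. On the promoter window that share was 1.85%, near the 1.83% of the ZNF genes.

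The 9 genes with a peak near the start were ZNF878, ZNF90, ZNF793, ZNF575, ZNF296, ZNF175, ZNF71, ZNF547 and ZNF274. The midpoints lay 0.607 kb before the start in ZNF71, 0.568 kb before it in ZNF274 and 0.454 kb after it in ZNF90. Outside the printed promoters, ZNF296 had one 0.322 kb past its start, with a fold enrichment of 2.60 on 15 fragments, and ZNF175 one 0.234 kb past its start, with 2.87 on 5 fragments. None of these 9 peaks had an FDR under 0.05.

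Most gene and peak pairs of the ZNF genes lay away from both ends. Of 112 gene and peak pairs in ZNF genes with a known strand, 9 (8.04%) were within 1 kb of the start, 6 (5.36%) within 1 kb of the far end and 97 (86.6%) elsewhere. In other genes the shares over 1315 pairs were 13.2%, 13.2% and 73.6%. ZNF536 alone gave 34 of the ZNF pairs, and without it the ZNF shares were 11.5%, 7.69% and 80.8%. Longer genes have more sequence away from their ends, and the shares were not divided by length. Over all genes of each group the median span was 23.3 kb in ZNF genes and 12.7 kb in the others. The shares therefore do not show where peaks are dense.

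The promoter windows were also searched for short motifs on both strands. CCCTCCC, a C-rich run of the kind HNRNPK prefers, was in 35 of the 219 ZNF windows (16.0%), against 37.9% of the windows of other chromosome 19 genes and 30.3% of all protein-coding genes. GCGAGG was in 66 ZNF windows (30.1%), against 25.3% and 28.1%, and CTAATG in 4 (1.83%), against 4.24% and 5.15%. The paper that reported these data names GCGAGG and CTAATG as binding motifs taken from its HNRNPK ChIP-seq. They are therefore not independent of the peaks described here. The C-rich run was thus less frequent in ZNF windows, whose median GC content was 60% against 64.0% in the other genes of the chromosome.

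Motif shares were also set beside the peaks of the ZNF genes. CCCTCCC was in 15.1% of the windows of 53 ZNF genes with a peak and in 16.3% of 166 without, and GCGAGG in 26.4% and 31.3%. Of the 9 genes with a peak near the start, 3 windows (33.3%) held CCCTCCC, among them that of ZNF878, against 15.2% of the 210 windows of ZNF genes without one. GCGAGG was in 0 of the 9 and in 31.4% of the 210, and CTAATG in 0 and in 1.90%. These shares rest on 9 windows. A match is a description of the letters in the window and not a binding site.

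The genes were grouped in clusters by position, with members less than 500 kb apart in the same cluster. There were 13 clusters of at least 2 genes, 8 of them with at least 10, and 7 genes stood alone. In the clusters of at least 10 genes a peak was listed in 47 of 226 members, 20.8% (16.0 to 26.6). In the smaller clusters the count was 7 of 17, and 3 of the 7 lone genes had a peak.

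Clusters differed in how many members had a peak. The highest share among the large ones was in the cluster from ZNF565 to ZNF573, at chr19:36182060-37779586, with 12 of 26 members (46.2%), 22 peaks and 20.4 peaks per Mb of member span (12.8 to 30.9). The lowest was in the cluster from ZNF175 to ZNF331, with 4 of 41 members (9.76%) and 4.59 peaks per Mb (1.68 to 9.99). The rates of these clusters did not overlap in their intervals, and they were picked as the extremes.

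The clusters between these extremes held more members without a peak than with one. The cluster from ZNF101 to ZNF254, which holds ZNF91 and ZNF93, had a peak in 10 of 37 members (27.0%) and that from ZNF264 to ZNF446 in 5 of 43 (11.6%). The counts were 5 of 25 from ZNF653 to ZNF791, 3 of 14 from ZNF414 to ZNF846 and 5 of 17 from ZNF628 to ZNF835. From ZNF575 to ZNF180 a peak was listed in 3 of 23 members (13.0%). The other protein-coding genes within the clusters did not always have the higher share. They had a peak in 7 of 10 cases from ZNF575 to ZNF180 and in 2 of 14 from ZNF175 to ZNF331, where their share was the higher one. It was the lower one from ZNF628 to ZNF835, with 6 of 25, and from ZNF101 to ZNF254, with 0 of 2.

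**Figure D4:**
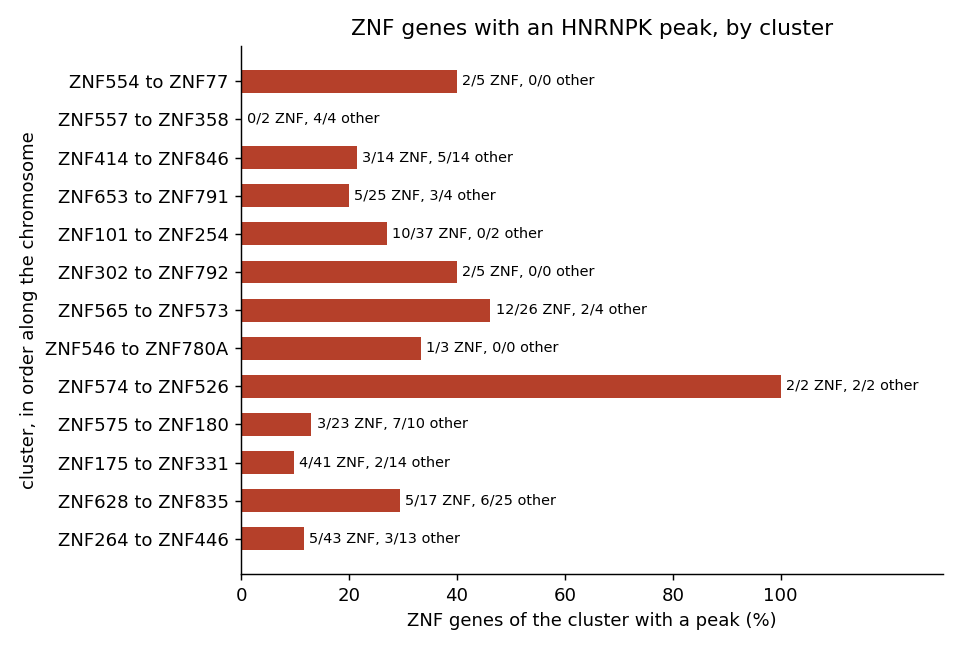
Share of ZNF genes with an HNRNPK peak in each of the 13 clusters, in percent, in order along chromosome 19; numbers beside the bars are genes with a peak over all genes, for ZNF genes and for the other protein-coding genes within the cluster. The share ran from 12 of 26 members between ZNF565 and ZNF573 to 4 of 41 between ZNF175 and ZNF331 among the clusters of at least 10 genes.

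Peaks were also counted between the members. The regions spanned by the 13 clusters held 239 peaks on 15.1 Mb, 15.8 per Mb, of which 80 were in members, and the rest of the chromosome held 1956 on 43.5 Mb, 45.0 per Mb. Outside the members the cluster regions had 159 peaks on 8.24 Mb, 19.3 per Mb (16.4 to 22.5). Among clusters of at least 10 genes this rate ranged from 5.61 per Mb between ZNF628 and ZNF835 to 68.3 between ZNF575 and ZNF180. In smaller clusters it ranged from 0, between ZNF554 and ZNF77 and between ZNF546 and ZNF780A, to 190 between ZNF574 and ZNF526. Of the 8 clusters of at least 10 genes, the members had the lower rate in 5 and the higher one in 3. The 3 were ZNF628 to ZNF835, with 19.6 in members against 5.61 between them, ZNF101 to ZNF254, with 9.43 against 5.92, and ZNF264 to ZNF446, with 9.24 against 7.38. Other protein-coding genes inside the clusters had a peak in 34 of 92 cases, 37.0% (27.8 to 47.2), against 590 of 1109 outside, 53.2% (50.3 to 56.1). The share of the other genes inside the clusters thus lay between that of the ZNF genes and that of the other genes outside. Its interval did not overlap that of the other genes outside. It met that of the ZNF genes in clusters, 22.2% (17.5 to 27.9), only at the edge, between 27.8 and 27.9. This overlap does not show that the shares are equal, and these groups were not compared within bins of span.

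Long runs of neighbouring ZNF genes had no peak. From ZNF577 to ZNF701 19 members in a row were not listed over 796 kb, a stretch with 1 peak in all, and from ZNF28 to ZNF761 16 members over 661 kb with 0 peaks, counting 2 readthrough symbols. From ZNF134 to ZNF329 17 members were not listed over 541 kb with 3 peaks between them. The run from ZNF576 to ZNF224 was different: its 12 members had none, but 26 peaks lay in the same 513 kb outside them.

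The ZNF genes that were not listed were also farther from a peak. The median distance to the nearest one was 38.6 kb, with quartiles of 16.0 and 97.2 kb, against 16.2 kb in the 577 other genes without a peak. The farthest was ZNF254, at 501 kb. The choice to name ZNF254 and the genes that bound the runs followed from these values.

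The share of genes with a peak differed between a stretch of higher local background and the rest of the chromosome. In the stretch from ZNF536 to ZNF296, at chr19:30225592-45076478, 1100 peaks had a median local background of 3.05 scaled fragments, against 1.40 in the 1095 peaks of the rest of the chromosome. A peak was listed in 23 of 62 ZNF genes inside it, 37.1% (26.2 to 49.5), and in 34 of 188 outside, 18.1% (13.2 to 24.2). Other genes moved in the same direction, with 208 of 263 inside, 79.1% (73.8 to 83.6), and 416 of 938 outside, 44.3% (41.2 to 47.5). The limits of the stretch were set after the values were seen, and the part of the background in these counts was not tested. Clusters of at least 10 genes followed this order in part. Their median backgrounds cover peaks in members only, so they are not like the stretch values over all peaks. Inside the stretch the median was 2.96 over 3 peaks from ZNF575 to ZNF180, where 3 of 23 members (13.0%) had a peak. From ZNF565 to ZNF573 it was 2.82 over 22 peaks, with 46.2%. Outside the stretch the values were 1.14 and 27.0% from ZNF101 to ZNF254 and 1.05 and 29.4% from ZNF628 to ZNF835. They were 1.05 and 9.76% from ZNF175 to ZNF331 and 1.04 and 11.6% from ZNF264 to ZNF446. From ZNF414 to ZNF846 they were 1.07 and 21.4%, and from ZNF653 to ZNF791 1.25 with 5 of 25 members.

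Within each stretch the ZNF genes had the lower values. Per Mb the ZNF genes had 31.0 peaks (24.3 to 39.0) inside and 8.61 (6.28 to 11.5) outside, and the other genes had 112 (104 to 121) and 35.8 (33.2 to 38.5). Without ZNF536 the rate inside was 20.7 (14.7 to 28.5). The intervals of ZNF and other genes did not overlap in either stretch, as the plot of both stretches shows.

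**Figure D5:**
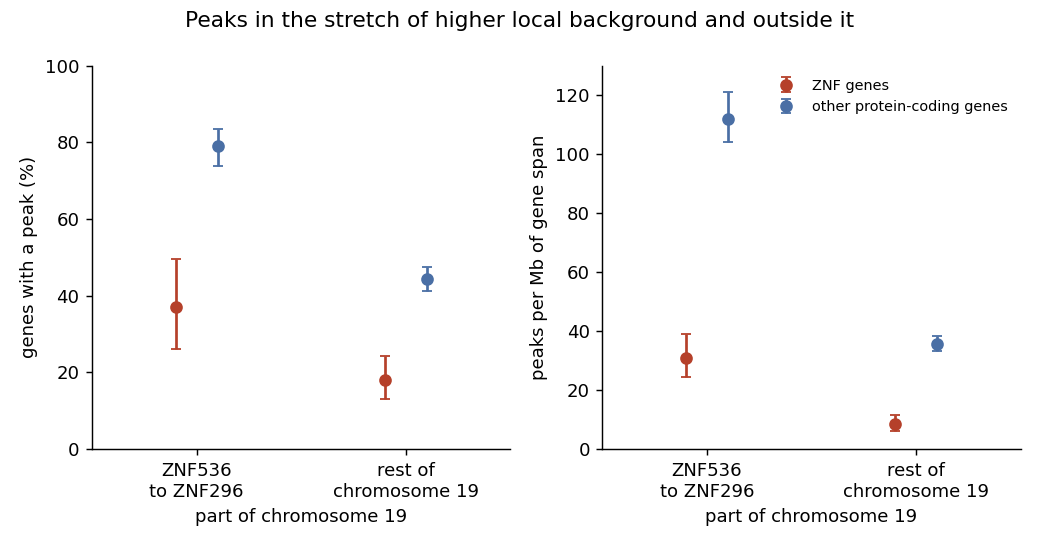
Share of genes with an HNRNPK peak in percent (left) and peaks per Mb of gene span (right) for ZNF genes (red) and other protein-coding genes (blue) of chromosome 19, in the stretch from ZNF536 to ZNF296 and in the rest; bars are 95% Wilson and Poisson intervals. The ZNF share was 37.1% inside and 18.1% outside, against 79.1% and 44.3% in the other genes.

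Of 11 ZNF genes with a well-known role, 3 had a peak, 27.3% (9.75 to 56.6), near the 22.8% of all ZNF genes of the chromosome. ZNF91, which represses SVA elements, had 2 with fold enrichments of 2.93 and 3.34. ZNF274, which recruits SETDB1 to the ends of ZNF genes themselves, had 1, with a fold enrichment of 3.34 on 6 fragments and an FDR of 0.640. ZNF420 had the 5 given above. None of these peaks had an FDR under 0.05.

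The other 8 were not listed. They were ZNF93, which represses LINE-1 elements, the imprinted ZNF331, ZNF350, a partner of BRCA1, and the repressor ZNF382. ZNF568, whose mouse counterpart silences a placental transcript of Igf2, ZNF675, an inhibitor of TRAF6 signalling, ZNF808, which acts in pancreas development, and ZNF224, a repressor of ALDOA, also had 0 peaks.

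Genes of proteins that work with KRAB zinc finger proteins were counted as well. Of 18 such genes on any chromosome, 8 had a peak, 44.4% (24.6 to 66.3), against 32.2% of all protein-coding genes, and 0 had one with an FDR under 0.05, against 7.35% of all protein-coding genes. All 3 on chromosome 19 had a peak, and 5 of the 15 on other chromosomes (33.3%), near the 31.1% of non-ZNF genes there. TRIM28 itself, on chromosome 19, had 2 with a highest fold enrichment of 4.29. DNMT1, the maintenance DNA methyltransferase, and CHD4, the NuRD remodeller, had 3 each, up to 4.30 and 4.15. UHRF1 had 2, and ATF7IP, HDAC1, ATRX and DAXX had 1 each. SETDB1, CBX1, CBX3, CBX5, CHD3, HDAC2, MORC2, TASOR, MPHOSPH8 and PPHLN1 had 0.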

How the data were processed

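HNRNPK ChIP-seq was measured in 1 IP and 1 input library of H1299. The submitters' processing notes name Trimmomatic 0.36, STAR 2.5.3a, MACS2, bedtools, HOMER and GRCh38, without roles or thresholds. The deposited fold enrichment was read as a ratio, the IP coverage divided by that of a local background, with 1 added to each. The authors' peak caller gave each peak a p-value and an FDR (q-value), deposited on a linear scale. The deposited pileup is a signal, the IP coverage at the peak in scaled fragments. Heights were whole multiples of 0.9735 to within 0.00525 of a step, and were divided by it to give fragments. Library depth was not analysed here.

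Peaks were overlapped by at least 1 bp with RefSeq GRCh38.p14 gene spans and 1 kb on either side. Rates used merged spans and distinct peaks. To recover the local background, 1 was added to the pileup, the sum was divided by the fold enrichment, and 1 was subtracted. Starts and strands came from the promoter table, which matched 219 of the 250 ZNF genes and 966 of the 1201 others. The motif GCGAGG was searched on both strands, with the motif CTAATG and the motif CCCTCCC, in the 250 bases before to 50 after the start. Zinc fingers per protein were planned but not counted, since no protein table was used here. Overlap counting was tested on simulated data. Python 3.11.15, numpy 2.4.6, scipy 1.17.1, pandas 2.3.3 and matplotlib 3.10.9 were used.

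Named genes were the 10 with the most peaks (ties by the highest fold enrichment), those holding the 10 highest peaks by fold enrichment, those with a peak near the start or on the promoter window, and lists of known roles and corepressors. The members and lists were chosen with earlier results of these data known. Alternatives changed the FDR, fold enrichment, margin, overlap rule, merging and symbols counted.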

Additional observations from a re-analysis of the deposited data

How the results depend on the processing

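The ZNF genes had the lower share and the lower rate in 11 of 11 alternatives each, but at fold enrichments from 5 up, where the ZNF values rest on 2 genes, their intervals overlapped with those of the other genes. The share of ZNF and of other genes was 4.4% and 17.2% with the FDR under 0.05, 0.800% and 2.75% at fold enrichments from 5 up, and 29.6% and 61.2% with a 5 kb margin. With no margin the share of other genes was 47.6%. The rates were 2.25 and 11 per Mb with the FDR under 0.05 and 0.265 and 1.18 at fold enrichments from 5 up. The rate of other genes was 51.0 with a 5 kb margin and 47.6 with merged peaks. Chosen after seeing the data, leaving out ZNF536 gave a ZNF rate of 11.8. From ZNF536 to ZNF296, also chosen after seeing the data, the shares were 37.1% and 79.1% and the rates 31.0 and 112, and outside it the share of other genes was 44.3% and the rates 8.61 and 35.8. The ratio of other to ZNF genes ranged from 2.07 to 3.92 for shares and from 3.18 to 4.91 for rates. Fewer peaks pass a stricter threshold, and the cause of the other shifts was not tested. ZNF536 had 7 peaks with the FDR under 0.05 and 0 at fold enrichments from 5 up, and ZNF420 had 0 in both. Peaks of 5 to 16 fragments limit each single call. No paired analysis was possible because there was 1 IP and 1 input.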

Other observations

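Zinc finger genes of chromosome 19 with other symbols (ZFP, ZSCAN, ZIM, ZIK and ZBTB) had a peak in 6 of 17 cases (35.3%), against 52.0% of all genes of the chromosome outside the ZNF family and 32.2% of all protein-coding genes, with at most 2 peaks in a gene. Among the 10 longest genes of the chromosome, ZNF536 had 69.4 peaks per Mb. Of the other 9, 2 were higher, RYR1 with 192 and CHST8 with 91.2, and 7 were lower, from 54.2 in TSHZ3 to 13.7 in MUC16. These genes were chosen after their values were seen.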
